A study of Mus musculus with 20 samples.

Results

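N6-methyladenosine (m6A) positions on the chromatin-associated RNA of wild-type cardiomyocyte cultures were compared with those of wild-type mouse embryonic stem cells (ESCs), the cells from which the cultures were made. A position was defined by its gene, its distance from the 5′ end of the unspliced gene and the 4-base motif printed beside it, with repeated lines dropped. The cardiomyocyte (CM) list held 25617 positions in 7572 genes and the ESC list 16983 positions in 5367 genes, and together they held 33607 of the 42515 positions on all 4 m6A lists of the series. Genes with at least 1 RPKM (reads per kilobase of gene, scaled to the depth of the library) of chromatin RNA in both wild-type (WT) cell states numbered 3484. Of these, 2711 (77.8%) held 16655 positions, and these positions are the subject of the main comparison. The other positions lay in genes that reached 1 RPKM in a single cell state, 3783 positions for CM WT and 3602 for ESC WT, or in neither, 9567 positions.

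The study compared WT and Mettl3 knockout (KO) mouse cells of C57BL/6 origin in both cell states. The ESCs were differentiated through embryoid bodies, which were replated on gelatin in cardiomyocyte medium with ascorbic acid, so each CM library is a bulk culture and not a sorted cell type. RNA bound to chromatin was immunoprecipitated with anti-m6A antibodies from Millipore and Synaptic Systems, and the same kind of RNA was sequenced for gene levels. Each cell state and genotype had 1 m6A list and 1 RNA library, so no difference described here has a replicate check and no p-value is given. In a bulk culture, fewer cells of a type and less RNA per cell cannot be told apart.

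m6A is the most abundant internal modification of messenger RNA and is placed while RNA is being made, by a complex in which METTL3 is the catalytic subunit and METTL14, WTAP, VIRMA and RBM15 are partners. The complex prefers adenosines within DRACH sequences, in which the methylated A is followed by C. Reader proteins such as YTHDC1 in the nucleus and the YTHDF proteins in the cytoplasm bind the mark, which is known to act in the exit from pluripotency and in the control of chromatin-bound transcripts.

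Every position carried GGAC or a variant of it with A as its first base, its second base or both, and the third base is the adenosine in question. The following 30-base windows give examples of each class of position, shown so that the motif can be seen in its surrounding sequence. Capitals mark the 4-base motif, all sequences are RefSeq sequence of GRCm38.p6 read 5′ to 3′ on the gene's strand, and distances count from 0 at the gene's 5′ end. Positions in genes with at least 1 RPKM in both cell states and on both lists include Ddx5 at 678, chr11:106788491-106788520 on the minus strand, and Firre at 31, chrX:50635274-50635303 on the minus strand.
Ddx5, both lists: aaagcggctgccgGGACgcagccggcacct
Firre, both lists: gggggccacctgcAGACacaccctggcttc
Positions on the CM list only include Gja1 at 28, chr10:56377315-56377344 on the plus strand, and Dnmt1 at 7111, chr9:20952761-20952790 on the minus strand.
Gja1, CM list only: gctccaagttaaaAAACgcttttacgaggt
Dnmt1, CM list only: aagatgccagcgcGAACagctccagcccga
Positions on the ESC list only include Cul4b at 26, chrX:38576154-38576183 on the minus strand, and Tmem39a at 30, chr16:38558715-38558744 on the plus strand.
Cul4b, ESC list only: cgcagtcgacgacAGACgtcttccagaagg
Tmem39a, ESC list only: cactccttcctcaGAACacctctccaatct
In genes that reached 1 RPKM in a single cell state, Igf2 at 9342, chr7:142657458-142657487 on the minus strand, was on the CM list only, Zfp42 at 3, chr8:43306990-43307019 on the minus strand, was on the ESC list only, and Nanog at 63, chr6:122707539-122707568 on the plus strand, was on both lists.
Igf2, CM list only: cagttcgcaaactGGACattagcttctcct
Zfp42, ESC list only: gtaagtgtggccgGAACagagttcgtccat
Nanog, both lists: ggggggaggagcaGGACctaccctttaaat

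Ddx5 encodes an RNA helicase, Firre is a nuclear long noncoding RNA, Gja1 encodes the gap junction protein connexin 43 and Dnmt1 the maintenance DNA methyltransferase. Cul4b is a ubiquitin ligase scaffold, Igf2 an imprinted growth factor, and Zfp42 and Nanog are pluripotency genes. The class names refer to the WT lists alone. The printed CM-only positions of Gja1, Dnmt1 and Igf2 were also on the ESC KO and CM KO lists. Of all CM-only positions in genes with at least 1 RPKM in both cell states, 10.9% were on both KO lists. The printed ESC-only positions of Cul4b, Tmem39a and Zfp42 were also on the ESC KO list. These windows were chosen after their values were seen, from 91 WT positions whose motif falls inside a 300-base RefSeq promoter window and matches its letters. The distance scale itself was read from such matches. Of 679 pairs of a position of the 4 lists and a window around it, 115 (16.9%) carried the printed motif when distances counted from 0. At any other shift of up to 12 bases 1 to 10 did, so a few printed matches could be coincidental. Most pairs did not match at 0, and the annotation behind the distances was not given. RefSeq starts may therefore differ from those of the lists in many genes. On the sense strand, GGAC occurs in 65.6% of all 32851 such windows, AGAC in 66.4%, GAAC in 60.3% and AAAC in 62.1%, so a motif by itself is common. Exon, intron and UTR boundaries were not used here.

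The label of the cultures was checked on chromatin RNA. Summed over 10 cardiomyocyte markers the level was 1.08 RPKM in ESC WT and 10.1 RPKM in CM WT, with all 10 higher in the CM library, although Nkx2-5 reached only 0.0820 RPKM and Tnnt2 0.742 RPKM. Of 9 ESC markers, 8 had values and all 8 were lower in the CM library, with sums of 75.9 and 9.35 RPKM. Markers of several other cell types were also higher there: fibroblast genes summed to 0.253 RPKM in ESC WT and 28.7 in CM WT (6 of 6 higher), endoderm genes to 0.0435 and 14.2 (5 of 5), blood and endothelial genes to 0.847 and 42.7 (5 of 6), and smooth muscle genes to 0.543 and 4.16 (4 of 4). The blood and endothelial sum was mostly the embryonic globin genes Hbb-y (18.2 RPKM in CM WT), Hbb-bh1 (12.5) and Hba-x (9.94). The endothelial gene Pecam1 was lower, at 0.706 and 0.292 RPKM. The neural sum went the other way, at 4.77 and 1.78 RPKM with 1 of 3 measured genes higher. It was mostly Stmn2 (4.36 and 0.485 RPKM), Pax6 was low in both, and Nes was higher (0.366 and 1.28 RPKM). Cardiomyocyte RNA was thus present in the CM library together with RNA of other cell types, and the part of those cells in the CM list was not tested. Mettl3 chromatin RNA was 1.73 RPKM in ESC WT, 1.18 in CM WT, 1.28 in ESC KO and 1.07 in CM KO, so its RNA over the whole gene did not by itself bear out the KO label, least of all in the CM library. The KO lists are therefore those of the libraries labelled Mettl3-KO.

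In genes with RNA in both cell states, 5421 positions were on both WT lists, 6305 on the CM list only and 4929 on the ESC list only. Shared positions thus made up 32.5% of the total (95% Wilson interval 31.8 to 33.3), CM-only positions 37.9% (37.1 to 38.6) and ESC-only positions 29.6% (28.9 to 30.3). These intervals cover counting error only, and positions of a gene share their RNA and are not independent. Seen from each list, 46.2% of its CM positions and 52.4% of its ESC positions in these genes were shared. The split changed with where the RNA was: in genes at 1 RPKM or more in CM WT only, 525 positions (13.9%) were shared, 2959 (78.2%) CM-only and 299 (7.90%) ESC-only, whereas in genes at 1 RPKM or more in ESC WT only, 1168 (32.4%) were shared, 999 (27.7%) CM-only and 1435 (39.8%) ESC-only.

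**Figure D1:**
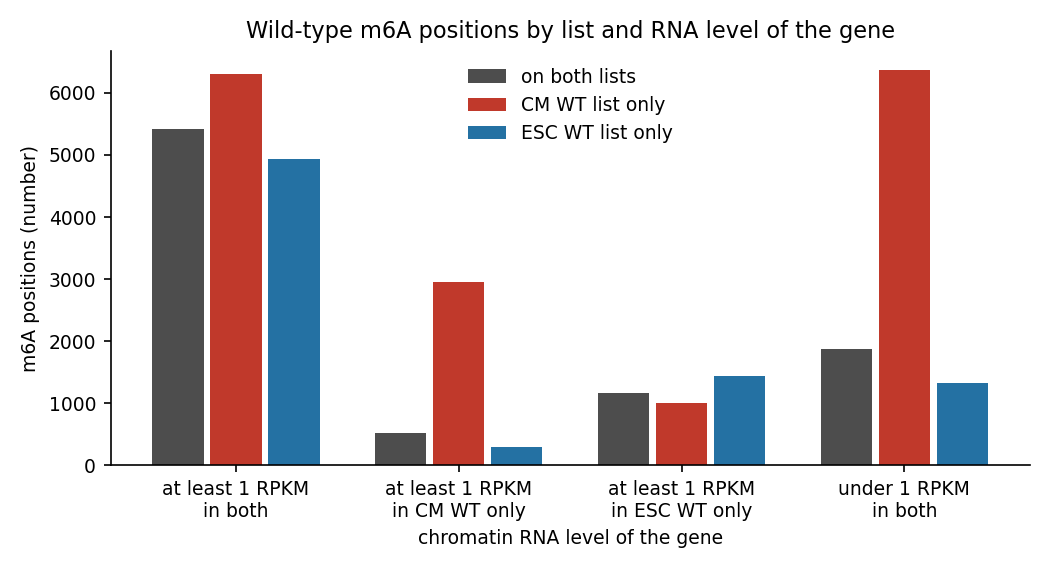
Number of WT m6A positions (y axis) on both lists (grey), on the CM WT list only (red) and on the ESC WT list only (blue), for genes grouped by chromatin RNA level (x axis). In genes with at least 1 RPKM in both cell states the classes hold 5421, 6305 and 4929 positions, and in genes at this level in CM WT only they hold 525, 2959 and 299.

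Most genes carried a mixture. Of the 2711 genes, 1665 (61.4%) had shared positions together with positions on a single list, 333 had shared positions only, 247 were on both lists with no position in common, 362 were on the CM list only and 104 on the ESC list only. Counted by gene, 1360 had more CM-only than ESC-only positions (50.2%), 678 had more ESC-only than CM-only (25.0%) and 673 had equal numbers. Complete sharing was rare in genes with many positions: of 1157 genes with at least 5, 152 shared over 50% of them and 1 shared all, namely Fzd5, a WNT receptor gene named after its values were seen, with 9 of 9 positions at 6.78 RPKM in ESC WT and 3.36 RPKM in CM WT. At the other extreme, 68 of the 1157 shared none, 76 had at least 75% of their positions on the CM list only and 39 at least 75% on the ESC list only.

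A position found in a single state usually had a neighbour from the other state in the same gene. Of the 6305 CM-only positions, 1270 (20.1%) lay within 50 bases of an ESC WT position and 3465 (55.0%) within 500 bases, with a median distance of 269 bases where the gene had any. Only 564 (8.95%) were in genes with no ESC WT position. Of the 4929 ESC-only positions, 1295 (26.3%) lay within 50 bases of a CM WT position and 3112 (63.1%) within 500 bases, with a median distance of 184 bases, and 163 (3.31%) were in genes with no CM WT position. When positions within 50 bases were counted as shared, 47.9% were shared, 30.2% CM-only and 21.8% ESC-only.

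The lists of the libraries labelled Mettl3-KO, made the same way, are the controls for these classes, and they held 18076 positions in ESCs and 13962 in CM cultures. Shared WT positions were also on the ESC KO list in 71.6% of cases and on the CM KO list in 59.3%, and 81.4% were on at least 1 of the KO lists. CM-only positions were on the ESC KO list in 25.9%, on the CM KO list in 23.4% and on either in 38.4%. ESC-only positions were on the ESC KO list in 36.7%, on the CM KO list in 17.1% and on either in 44.2%. With all positions of either KO list removed, 1007 shared, 3886 CM-only and 2749 ESC-only positions remained, which is 13.2%, 50.9% and 36.0% of what was left. In these genes the ESC WT list shared 52.4% of its positions with the CM WT list, 55.0% with the ESC KO list and 39.2% with the CM KO list. The CM WT list shared 46.2% with ESC WT, 47.0% with ESC KO and 40.0% with CM KO. Such shares depend on the length of the other list, and the CM KO list was the shortest, with 7304 positions in these genes. Of those 7304, 64.2% were on the CM WT list, 59.2% on the ESC KO list and 55.6% on the ESC WT list.

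Motif composition differed between the classes. GGAC, the motif preferred by the METTL3 complex in most tissues, made up 34.7% of shared positions (95% Wilson interval 33.4 to 35.9), 29.1% of CM-only positions (28.0 to 30.3) and 25.2% of ESC-only positions (24.0 to 26.4). AAAC ran the other way, at 17.9%, 23.2% and 25.8%. AGAC (24.6%, 24.6% and 24.5%) and GAAC (22.9%, 23.1% and 24.4%) were nearly level. On the sense strand of the RefSeq promoter windows, GGAC was 26.1% and AAAC 26.2% of all occurrences of the 4 motifs. Those windows run from 250 bases before the gene start to 50 bases after it. ESC-only positions lay a median of 20311 bases from the start, so the windows are not a background for them. The motif shares of whole unspliced genes were not measured. In genes whose RPKM differed by less than 1.5-fold, the order for GGAC was the same, at 35.3% of shared, 30.2% of CM-only and 27.5% of ESC-only positions. AAAC was again lowest in shared positions there (17.8%), but CM-only (23.3%) and ESC-only positions (22.5%) changed places. Over whole lists GGAC was 30.1% for ESC WT, 31.7% for CM WT, 27.3% for ESC KO and 30.9% for CM KO.

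Shared positions also lay closer to the 3′ end. Along the RefSeq gene, introns included, the median place was 72.8% of the way from the 5′ end for shared positions, 68.6% for CM-only and 63.3% for ESC-only positions. Positions past the RefSeq end, 103 shared, 112 CM-only and 113 ESC-only, were left out. RefSeq starts and ends may not be those behind the printed distances, so places near either end are approximate. The median distance to the gene's end was 6032.5, 9204 and 10962.5 bases. The last 5% of the gene held 20.4% of shared, 18.6% of CM-only and 16.5% of ESC-only positions. The 5′ end separated the cell states more: the first 500 bases held 423 shared (8.18%), 449 CM-only (7.44%) and 138 ESC-only positions (2.93%), and the first 5% of the gene held 10.4%, 10.6% and 6.66%. Conversely, of the positions between 5 and 20% of the gene, 38.2% were ESC-only, 34.1% CM-only and 27.6% shared, against 21.0%, 42.9% and 36.0% in the first 5%. GGAC was 41.0% of shared, 39.9% of CM-only and 30.0% of ESC-only positions in the first 5% of the gene, and 38.4%, 31.5% and 30.2% in the last 5%.

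**Figure D2:**
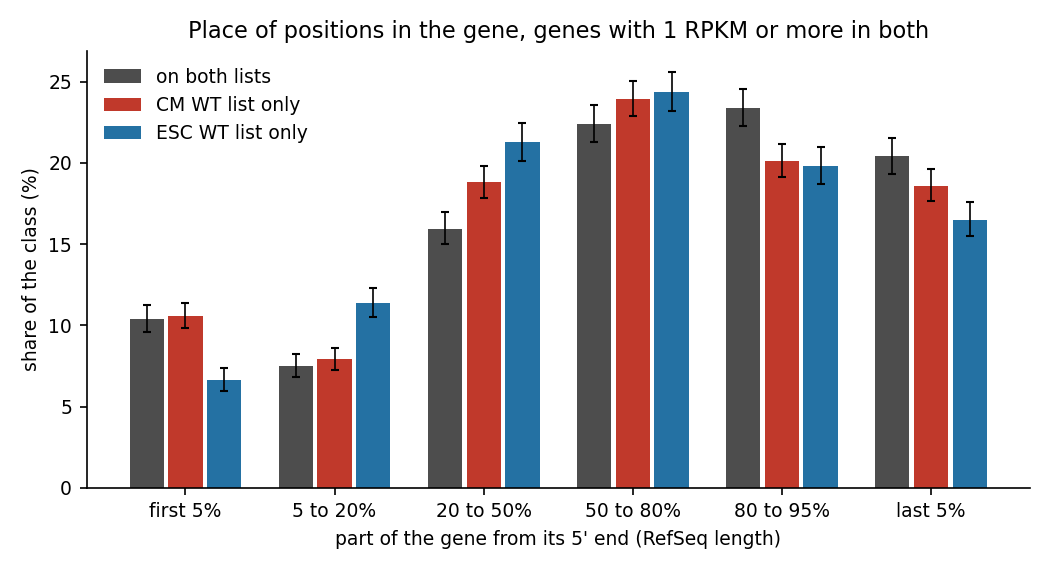
Share of each class of position (y axis, percent, with 95% Wilson intervals) in 6 parts of the RefSeq gene from its 5′ end (x axis), for genes with at least 1 RPKM in both WT cell states; positions on both lists are grey, CM-only red and ESC-only blue. The first 5% of the gene holds 10.4% of shared and 10.6% of CM-only but 6.66% of ESC-only positions, and the last 5% holds 20.4%, 18.6% and 16.5%.

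The amount of RNA moved with the class of position. Over the 3484 genes the median RPKM was 2.34 in ESC WT and 1.76 in CM WT, a median shift of -0.22 on the log2(RPKM + 1) scale, and CM WT exceeded ESC WT at least 2-fold in 99 genes (2.84%) and fell short of it at least 2-fold in 460 (13.2%). In the 2790 positions of genes at least 2-fold lower in CM WT, 53.6% were ESC-only and 18.6% CM-only. In the 411 positions of genes at least 2-fold higher, 74 were ESC-only and 255 (62.0%) CM-only. In the 9994 positions of 1688 genes within 1.5-fold, 43.4% were CM-only, 34.2% shared and 22.4% ESC-only. CM-only positions therefore outnumbered ESC-only ones at near equal RPKM as well. After both files were scaled to the same median, genes within 1.5-fold gave 37.5% CM-only, 35.5% shared and 27.0% ESC-only. The part of RNA level in these classes was not tested, and the lists carry no signal or depth for a single position.

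**Figure D3:**
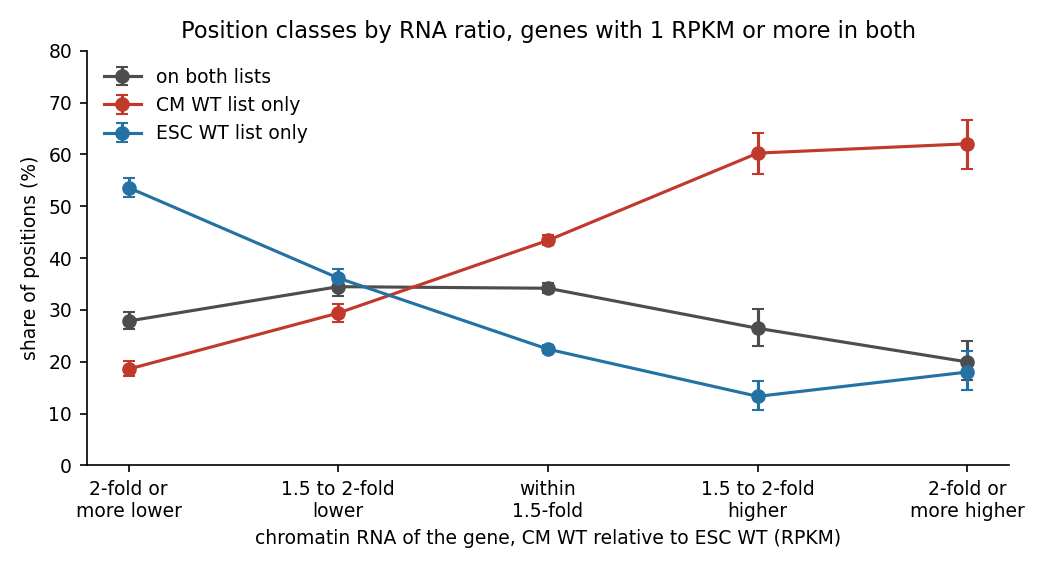
Share of positions (y axis, percent, with 95% Wilson intervals) on both lists (grey), on the CM list only (red) and on the ESC list only (blue), by the CM WT to ESC WT ratio of the gene's chromatin RNA (x axis). The ESC-only share is 53.6% in genes at least 2-fold lower in CM WT and is at most 36.1% in the other groups, while the CM-only share goes from 18.6% to 62.0%.

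Genes on a single list followed the same order. The median log2 ratio of RNA, CM WT over ESC WT, was -0.05 for the 362 genes on the CM list only and -0.61 for the 104 genes on the ESC list only, beside -0.23 for genes with mixed positions and -0.30 for genes with shared positions only. With both files scaled to the same median, the value for genes on the CM list only turned to 0.21 and that for mixed genes to 0.041. The value for genes on the ESC list only became -0.33 and that for genes with shared positions only -0.030. The split also differed with the level of the gene, taken as the geometric mean of both WT values: at 1 to 1.5 RPKM 46.6% of positions were CM-only and 20.6% ESC-only, against 30.8% and 40.7% at 4 to 8 RPKM. At 8 RPKM or more the order turned back, with 34.7% CM-only and 30.7% ESC-only.

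The 8 genes with most shared positions had 15 to 23 of them. Dido1, a PHD-finger protein that binds methylated histone H3, led with 23 shared, 8 CM-only and 7 ESC-only positions, at 6.15 RPKM in ESC WT and 2.78 RPKM in CM WT. Of its 23 shared positions 11 were in the last 25% of the gene, whereas 4 of its 7 ESC-only positions were in the first 25%. Zfp292, a zinc finger protein, had 19 shared, 19 CM-only and 12 ESC-only positions. Srrm2, a scaffold of nuclear speckles, had 17, 12 and 7 at nearly the same RNA level, 8.26 and 7.88 RPKM. Mki67, which coats mitotic chromosomes, had 17, 19 and 16. The imprinted gene Zdbf2 had 16, 11 and 10, the zinc finger gene Zfp462 had 15, 18 and 7, and Asxl1, a Polycomb-associated regulator, had 15, 7 and 7. Gm47283, which has no entry in the RefSeq table, had 16, 15 and 17 positions at 29.5 and 20.5 RPKM.

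Of the shared positions, 18 of 23 in Dido1, 17 of 19 in Zfp292, 15 of 17 in Mki67, 14 of 15 in Zfp462 and 13 of 17 in Srrm2 were on a KO list as well. These counts are to be read beside the 81.4% over all shared positions.

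**Figure D4:**
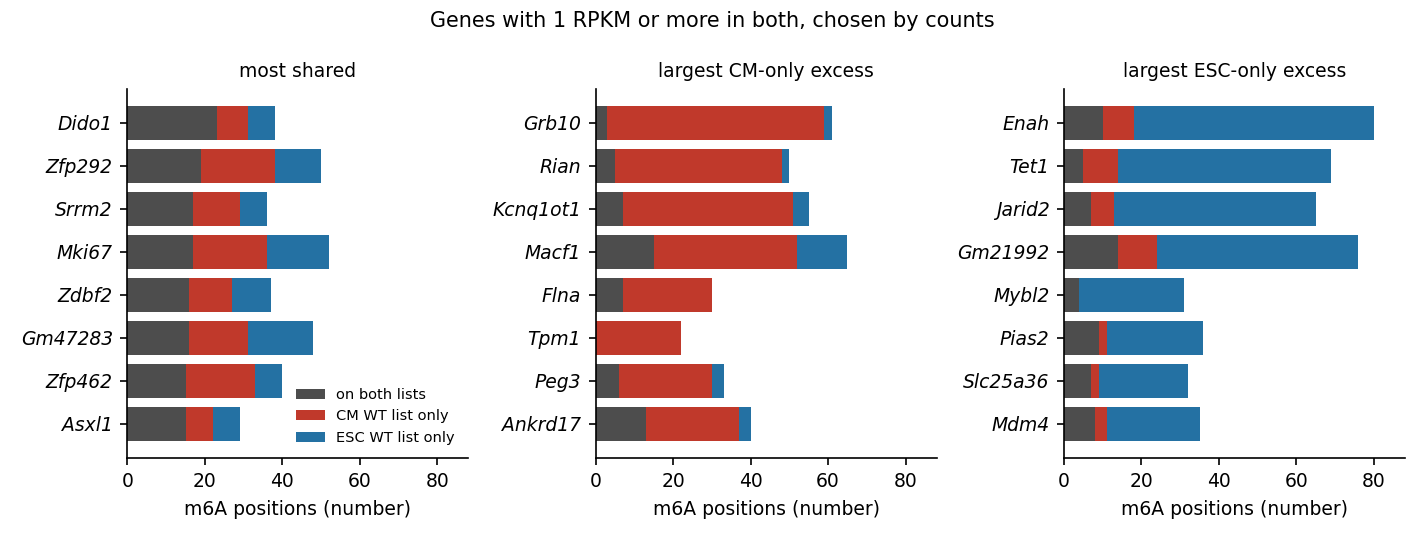
Number of positions (x axis) on both lists (grey), the CM WT list only (red) and the ESC WT list only (blue) for the 8 genes with most shared positions (left), the 8 with the largest excess of CM-only over ESC-only positions (middle) and the 8 with the largest excess of ESC-only over CM-only positions (right), among genes with at least 1 RPKM in both. Dido1 has 23 shared positions, Grb10 56 CM-only and 2 ESC-only, and Enah 62 ESC-only and 8 CM-only.

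The 8 genes with the largest excess of CM-only over ESC-only positions were Grb10, Rian, Kcnq1ot1, Macf1, Flna, Tpm1, Peg3 and Ankrd17. Grb10, an imprinted adaptor that restrains growth factor signalling, had 56 CM-only, 3 shared and 2 ESC-only positions, with 3.55 RPKM in ESC WT and 7.05 in CM WT (chr11:11930499-12037428 in GRCm38.p6). They ran along the gene, with 21 of the 56 in its first 25% and 17 in its last. Neither KO list held a Grb10 position, and Grb10 RNA was 0.194 RPKM in ESC KO and 0.380 in CM KO. Rian, an imprinted noncoding RNA that hosts small nucleolar RNAs, had 43 CM-only, 5 shared and 2 ESC-only positions at 15.8 and 20.3 RPKM. Kcnq1ot1, an imprinted noncoding RNA that overlaps Kcnq1, had 44, 7 and 4 at 3.84 and 4.88 RPKM, but its KO lists were longer than either WT list, with 70 positions in ESC KO and 77 in CM KO. Strand was not given for the lists, so positions of overlapping genes cannot be told apart. Peg3, a paternally expressed zinc finger gene, had 24 CM-only, 6 shared and 3 ESC-only positions, with RNA at 2.33 RPKM in ESC WT and 15.0 in CM WT.

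Tpm1, which encodes the tropomyosin of the sarcomere's thin filament, had 22 CM-only positions and none on the ESC WT list, at 2.06 RPKM in ESC WT and 7.03 in CM WT (chr9:67022590-67049672). Of the 22, 15 were on neither KO list, beside 61.6% over all CM-only positions in genes with RNA in both states. Flna, an actin crosslinker, had 23 CM-only, 7 shared and no ESC-only positions at 5.38 and 9.37 RPKM. Macf1, which links microtubules to actin, went against its RNA: it had 37 CM-only, 15 shared and 13 ESC-only positions although its level was 3.69 RPKM in ESC WT and 2.39 in CM WT. Ankrd17, an ankyrin-repeat protein, had 24 CM-only, 13 shared and 3 ESC-only positions at levels of 3.65 and 3.64 RPKM. Ankrd17 also led the 870 genes with positions whose RPKM differed by less than 1.2-fold, of which 565 had more CM-only positions and 101 more ESC-only positions. Over all 2711 genes these shares were 50.2% and 25.0%. RPKM was not scaled for the 870, although the CM WT median was 0.751 of the ESC WT median. Picked from the 870 after their values were seen, Rbpms, an RNA-binding protein of muscle, had 16 CM-only and 1 ESC-only positions and Tnrc6a, a partner of Argonaute in silencing, 16 and 2. On the other side, the bromodomain gene Brwd1 had 2 and 8, and Kansl1, a subunit of the NSL acetyltransferase complex, 8 and 13.

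The largest ESC-only excesses were in genes with far less RNA in the CM cultures. Enah, an actin regulator of the Ena/VASP family, had 62 ESC-only, 10 shared and 8 CM-only positions, with 12.9 RPKM in ESC WT and 3.82 in CM WT (chr1:181896384-182027556). Of the 62, 33 were in the first 25% of the gene. Tet1, which oxidises 5-methylcytosine, had 55, 5 and 9 at 11.8 and 1.45 RPKM. Jarid2, a cofactor of Polycomb repressive complex 2, had 52, 7 and 6 at 8.80 and 2.95 RPKM. Mybl2, a cell-cycle transcription factor, had 27 ESC-only, 4 shared and no CM-only positions at 10.0 and 1.86 RPKM. The SUMO ligase Pias2 had 25, 9 and 2, the p53 inhibitor Mdm4 had 24, 8 and 3, and the mitochondrial carrier Slc25a36 had 23, 7 and 2. Gm21992, which overlaps Rbm14 and Rbm4, had 52, 14 and 10. All 8 were lower in CM WT, from 0.123 of the ESC level for Tet1 to 0.557 for Slc25a36. Their positions on the ESC KO list numbered 84 in Enah, 61 in Tet1 and 58 in Jarid2, and 31 of the 62, 30 of the 55 and 29 of the 52 ESC-only positions were on neither KO list. Over all ESC-only positions in genes with RNA in both states this share was 55.8%, so these counts are near it.

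**Figure D5:**
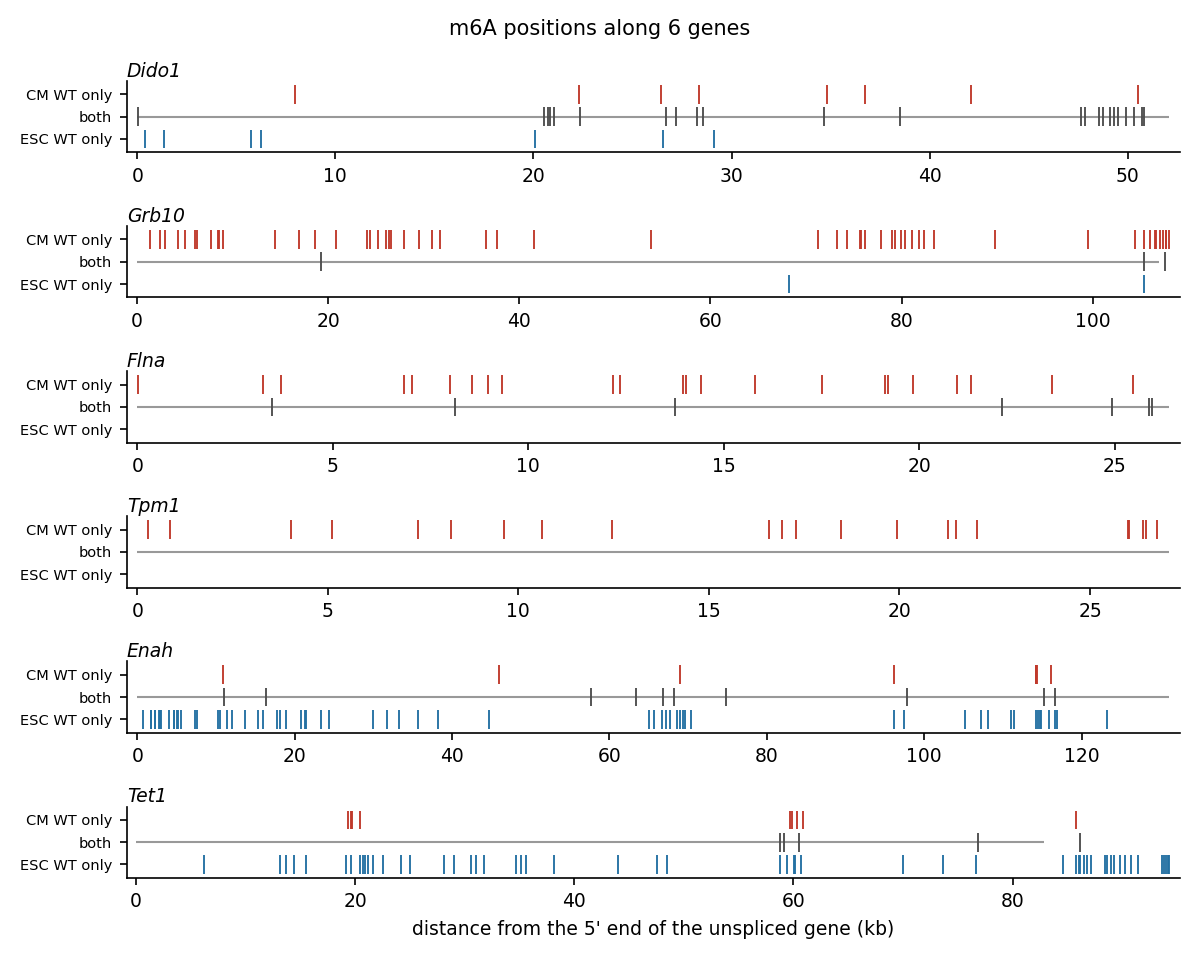
Positions along 6 genes (x axis, distance from the 5′ end of the unspliced gene in kb; grey line, RefSeq length), drawn on separate rows for the CM WT list only (red), both lists (dark grey) and the ESC WT list only (blue). Dido1 has 11 of its 23 shared positions in its last 25%, Tpm1 has 22 CM-only positions and no others, and Enah has 33 of its 62 ESC-only positions in its first 25%.

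Pluripotency genes with RNA in both cell states leaned to the ESC list. Of 18 such genes, all with positions, 13 had more ESC-only and 4 more CM-only positions, and together they held 161 ESC-only (63.1%), 53 shared and 41 CM-only positions, beside 29.6% ESC-only over all genes. Their median log2 RNA ratio was -1.36. Over all genes at least 2-fold lower in CM WT, 53.6% of positions were ESC-only. The part of RNA level in the lean of the pluripotency genes was not tested. Tet1 and Jarid2 gave 107 of the 161. Trim71, an RNA-binding repressor of stem cells, differed from them with 11 shared, 5 CM-only and 3 ESC-only positions at 5.25 and 3.25 RPKM. Another 15 pluripotency genes reached 1 RPKM in ESC WT only, and 14 of them held 102 positions, 72 ESC-only, 20 shared and 10 CM-only. Over all genes of that group 39.8% of positions were ESC-only, 32.4% shared and 27.7% CM-only. Their ESC-only share ranged from 34.6% to 75.0% with the CM WT level. Among the 14, Tet2, a second 5-methylcytosine oxidase, had 15 ESC-only, 11 shared and 6 CM-only positions at 5.42 and 0.944 RPKM.

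Of 23 cardiac transcription factors, 10 reached 1 RPKM in CM WT only, and these held 51 positions, all of them on the CM list only. Over all genes of that group 78.2% of positions were CM-only, and 99.4% where ESC WT was under 0.1 RPKM, as in Gata4 and Tbx20, so the count is not particular to heart genes. Gata4 had 8 at 0.0270 RPKM in ESC WT and 2.01 in CM WT, and Tbx20 had 8 at 0.0314 and 2.01 RPKM. Tead1, an effector of Hippo signalling, was the only factor of the list with RNA in both states and had 6 shared, 5 CM-only and 4 ESC-only positions at 2.68 and 2.69 RPKM. Among sarcomere genes at 1 RPKM in CM WT only, Ttn, the giant spring of the sarcomere, had 137 CM-only, 14 shared and 3 ESC-only positions at 0.641 and 2.18 RPKM, and Flnc had 5 CM-only positions. Of the calcium and conduction genes, Slc8a1, the sodium-calcium exchanger, had 15 positions, all CM-only, at 0.0292 and 1.86 RPKM. Gja1, at 6.87 and 7.40 RPKM, had 7 shared, 4 CM-only and 2 ESC-only positions. Atp2a2, the sarcoplasmic calcium pump, had 7 ESC-only, 2 CM-only and no shared positions at 5.49 and 3.65 RPKM.

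Genes of other cell types in the culture also held CM-only positions, to be read beside the 78.2% over all genes at 1 RPKM in CM WT only. Of the fibroblast and matrix list, 10 genes reached 1 RPKM in CM WT only and held 49 CM-only, 1 shared and 1 ESC-only positions, of which Col1a1, a fibrillar collagen, had 11 CM-only and 1 ESC-only. The endoderm genes expressed in CM WT only held 52 positions, all CM-only, with 35 in Apob, the core protein of lipoproteins (0.0383 and 10.3 RPKM), and 12 in Dab2, an endocytic adaptor. Blood and endothelial genes held 7, all CM-only, 4 of them in the VEGF receptor gene Kdr. Apob, Dab2 and Kdr were under 0.1 RPKM in ESC WT. Over all such genes at 1 RPKM in CM WT only, 99.4% of positions were CM-only. The CM-only positions of genes expressed in a single state are thus not limited to heart genes, and which cells carry them was not tested. By contrast, Fn1, the fibronectin gene with 6.01 and 9.12 RPKM, had 12 shared, 13 CM-only and 16 ESC-only positions.

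The CM-only share in such genes followed how little RNA the ESCs had. Where ESC WT was under 0.1 RPKM, 524 of 527 positions in 97 genes (99.4%) were CM-only. This share was 88.3% at 0.1 to 0.5 RPKM and 67.7% at 0.5 to 1 RPKM. In genes at 1 RPKM or more in ESC WT only, 75.0% of 28 positions were ESC-only where CM WT was under 0.1 RPKM, 64.7% at 0.1 to 0.5 RPKM and 34.6% at 0.5 to 1 RPKM. Most of the latter genes, 1247 of 1549, were in the 0.5 to 1 RPKM range. Of those with most positions on the ESC list, Adam23, a cell-surface protein, had 20 ESC-only, 3 CM-only and no shared positions at 6.56 and 0.831 RPKM. Brca2, the DNA repair gene, had 10, 8 and 11 at 1.98 and 0.865 RPKM, and Ticrr, a replication initiation factor, had 15, 1 and 4. The transcriptional repressor Trps1 had 8 ESC-only, 2 CM-only and 9 shared positions, and Gm20716, which overlaps Adnp, had 12, 9 and 9. In genes at 1 RPKM in CM WT only, Plec, a cytoskeletal linker with 0.923 and 1.30 RPKM, had 22 shared, 10 CM-only and 16 ESC-only positions. Gpc3, a glypican of the cell surface, had 49 CM-only and 2 ESC-only positions, and the matrix proteoglycan gene Vcan had 31 CM-only, 6 shared and 9 ESC-only.

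Long noncoding RNAs and imprinted genes with RNA in both states had CM-only shares above the 37.9% over all genes. A few genes held most of the CM-only positions in each group. The 12 long noncoding RNAs of the list held 150 CM-only (74.6%), 31 shared and 20 ESC-only positions, and 9 of the 12 had more CM-only positions. Most came from 3 genes: Kcnq1ot1 and Rian with 87 together, and Meg3 with 18 at 6.45 and 18.3 RPKM. Over all 38 genes annotated as long noncoding RNA the CM-only share was 56.3%, and without Rian, Kcnq1ot1 and Neat1 it was 38.3%, beside 37.5% for protein-coding genes. The 6 imprinted genes held 108 CM-only (62.8%), 39 shared and 25 ESC-only positions. Most of the 108 were in Grb10 (56) and Peg3 (24), both higher in CM WT and both named for their CM-only excess. Zdbf2, of the same list, had 11 CM-only, 16 shared and 10 ESC-only positions. The share without Grb10 and Peg3 was not measured. Airn, the imprinted antisense transcript that overlaps Igf2r, was at 0.286 and 7.46 RPKM and had 130 positions, all CM-only, with 86 positions on the CM KO list. The imprinted gene Zim1, at 0.0443 and 2.64 RPKM, had 25, all CM-only.

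Counted by gene, signalling genes of the WNT, BMP and TGF-beta pathways, which direct mesoderm and heart differentiation, also leaned to the CM list. Of 12 genes with RNA in both states, 11 had more CM-only than ESC-only positions and 1 had equal numbers. Over all 2711 genes 50.2% had more, but 673 of these genes had equal numbers. The 12 genes held 47 CM-only (46.1%, Wilson interval 36.7 to 55.7), 37 shared and 18 ESC-only positions (17.6%, interval 11.5 to 26.2). The CM-only interval covers the 37.9% over all genes, while the ESC-only interval lies below the 29.6%. Their median log2 RNA ratio was 0.14, against -0.22 over all genes. Both intervals cover the shares in genes within 1.5-fold, 43.4% CM-only and 22.4% ESC-only. The part of RNA level in this lean was not tested. Ctnnb1, the WNT effector beta-catenin, had 8 CM-only, 3 shared and 3 ESC-only positions at 5.29 and 6.49 RPKM. The WNT co-receptor gene Lrp6 had 8, 4 and 2 at 1.54 and 1.47 RPKM, and Apc, part of the beta-catenin destruction complex, had 9, 13 and 6 at 2.32 and 1.76 RPKM.

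Chromatin regulators had 198 CM-only (37.2%), 167 shared and 167 ESC-only positions (31.4% each) in 32 of 34 genes, near the 37.9%, 32.5% and 29.6% over all genes. The histone methyltransferase genes Kmt2a and Kmt2d had 23 CM-only, 11 shared and 19 ESC-only, and 17, 15 and 9, respectively. Nsd1 had 12, 11 and 11, and Mga, a MYC-network repressor, had 13, 14 and 13. Genes of the m6A machinery itself had 31 CM-only, 40 shared and 37 ESC-only positions in 10 of 12 genes. Wtap had 10 ESC-only, 4 shared and 2 CM-only at 4.64 and 1.99 RPKM, Ythdf3 had 6, 3 and 6 at 5.67 and 5.22 RPKM, and Rbm15 had 3, 7 and 3. Cell-cycle genes had 33 CM-only, 42 shared and 41 ESC-only positions in 19 of 20 genes, and Top2a, the mitotic topoisomerase, had 2, 3 and 8 at 12.9 and 5.02 RPKM.

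The p53 targets held 21 CM-only (30.0%, 95% Wilson interval 20.5 to 41.5), 28 shared and 21 ESC-only positions in 9 genes. Among them Mdm2, the p53 ubiquitin ligase, had 7, 7 and 8. Immediate early genes held 13 CM-only (39.4%, interval 24.7 to 56.3), 15 shared and 5 ESC-only positions in 5 genes. Both intervals cover the 37.9% CM-only over all genes with RNA in both states. The growth-factor response gene Egr1 had 1 CM-only, 6 shared and 3 ESC-only positions, and Klf6 had 7, 2 and none, with RNA at 1.26 and 6.05 RPKM. Of 24 ribosomal protein genes, 18 held 37 positions, namely 9 CM-only (24.3%), 9 shared and 19 ESC-only (51.4%, 95% Wilson interval 35.9 to 66.6). Over all genes with RNA in both states the ESC-only share was 29.6%. The median log2 RNA ratio of the ribosomal list was -0.73. Over all genes 1.5 to 2-fold lower in CM WT the ESC-only share was 36.1%, and at least 2-fold lower it was 53.6%. The interval of the ribosomal list covers both, and the part of RNA level was not tested. Rps3, at 286 RPKM in ESC WT and 198 in CM WT, had 2 CM-only and 1 ESC-only position. Over the 3484 genes with RNA in both states, the share with any WT position was 81.7% at 1 to 1.5 RPKM, 86.5% at 2 to 4 RPKM and 38.9% at 8 RPKM or more.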

How the data were processed

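The members, gene lists and tests were chosen with earlier results of these data known. Each m6A list was deposited by the authors as gene, position and motif, with no header, signal or depth. Gene levels were deposited by the authors as RPKM per Ensembl gene. HISAT2, MACS2, Bowtie, Picard, cutadapt and mm10 appear in the submitters' processing notes with no role for each. How positions were called, on which annotation and strand, was not given in the sources used here.

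Distances were found to count from 0 by matching motifs to RefSeq windows. Repeated lines were dropped (136 in CM WT and 110 in ESC WT). Positions were then classed by exact match of gene, distance and motif, and genes by 1 RPKM in each WT file. Gene names, lengths and overlaps came from RefSeq GRCm38.p6, joined by symbol. Log2 ratios used RPKM + 1 and shares 95% Wilson intervals. Low RPKM values fell on steps that give about 27900000 reads for ESC WT and 29400000 for CM WT, although only 56.5% and 55.6% of the low genes came out whole within 0.05, so these depths are estimates.

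Named genes with RNA in both states were the 8 with most shared positions and the 8 with the largest excess of either class. Those expressed in a single state were the 6 with most positions on its list, and each gene list gave up to 4 members with at least 3 positions. Genes and windows picked otherwise are marked in the text, and 1 gene that the rule names is not reported here. Of the positions, 16 in 15 genes had no RPKM value, and 18 of 33607 had a spacing that recurs under another gene. The 12 ATAC-seq libraries were not used here, because positions are relative to genes. Python 3.11.15, pandas 2.3.3, numpy 2.4.6, scipy 1.17.1 and matplotlib 3.10.9 were used, and the classing was tested on simulated lists.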

Additional observations from a re-analysis of the deposited data

How the results depend on the processing

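Shares are given in the order shared, CM-only, ESC-only. They were 31.5%, 41.3% and 27.1% at 0.5 RPKM (10214 CM-only positions). At 2 RPKM the CM-only and ESC-only shares were 36.2% and 31.9%, with 2514, 2851 and 2514 positions. With no RPKM filter they were 26.8%, 49.5% and 23.8%, with 8993, 16624 and 7990 positions. Counting positions within 50 bases as shared gave 47.9%, 30.2% and 21.8%, GGAC positions alone 37.9%, 37.1% and 25.0%, RPKM within 1.5-fold 34.2%, 43.4% and 22.4%, and positions on no KO list 13.2%, 50.9% and 36.0%. Among alternatives chosen after seeing the data, scaled RPKM within 1.5-fold gave 35.5% shared and 27.0% ESC-only, and leaving out genes of 20 or more positions gave 34.2% and 27.8%. In all genes, GGAC was 32.7% of CM-only and 27.2% of ESC-only positions. With KO positions matched within 50 bases, the ESC KO and CM KO lists held 80.3% and 67.1% of shared, 37.7% and 33.0% of CM-only and 53.1% and 30.0% of ESC-only positions. Scaling to the same median turned the median log2 ratio to 0.074 for genes with no shared position, 0.041 for mixed genes and 0.21 for genes on the CM list only. With no RPKM filter the CM-only share was 86.8% for cardiac transcription factors, 64.5% for calcium and conduction genes, 72.8% for fibroblast genes, 88.3% for endoderm genes, 84.1% for long noncoding RNAs, 71.4% for imprinted genes and 59.8% for the WNT, BMP and TGF-beta list. The cause of these changes was not tested. The other 33 values kept their direction. Shares among them moved by less than their counting interval and counts by less than 1.5 times. Median log2 ratios among them have no such interval. With scaling, the ratio of genes with shared positions only went from -0.30 to -0.030, and that of genes on the ESC list only from -0.61 to -0.33.

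No paired analysis was possible because each m6A group has 1 list. The ATAC-seq comparison planned for these positions, with its alternatives, was not run. RNA of lists and libraries comes from bulk cultures, and list length differs between the cell states.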

Other observations

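Genes under 1 RPKM in both WT cell states held 9567 positions, of which 6361 (66.5%) were CM-only, 1879 (19.6%) shared and 1327 (13.9%) ESC-only. Among them, Runx1, a regulator of blood formation, had 6 positions, all CM-only, at 0.0326 RPKM in ESC WT and 0.542 in CM WT. Flt1, a VEGF receptor gene, had 5 at 0.0504 and 0.939 RPKM, and Csf1r, the macrophage growth factor receptor, had 4 with 0.537 RPKM in CM WT and a listed value of 0 in ESC WT. The collagen gene Col5a1 had 10, all CM-only, at 0.0460 and 0.894 RPKM, and the smooth muscle gene Cald1 had 4, all CM-only, at 0.139 and 0.703 RPKM. Virma, a subunit of the m6A writer complex, was nearly level in RNA at 0.901 and 0.982 RPKM and had 10 CM-only, 1 shared and 4 ESC-only positions.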
